A study of Homo sapiens with 2 samples.

Results

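The genes described here encode the proteins of neutrophil granules, the storage vesicles that give neutrophils their antimicrobial and tissue-degrading contents. They were listed by name, with earlier results of these data known: 35 genes of the 20037 protein-coding genes on the primary chromosomes of the RefSeq gene table. Around each gene, the peaks of 2 libraries were taken whose midpoint lay inside the gene span or within 10 kb of it, and again within 50 kb. This gave 12 ab21061 peaks of 7687 and 13 sc8558 peaks of 7562 within 10 kb, and 25 peaks of each list within 50 kb.

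The libraries came from chromatin immunoprecipitation followed by sequencing in NB4, a human cell line derived from acute promyelocytic leukemia. Its PML-RARA fusion protein holds the cells at the promyelocyte stage of granulocyte maturation, and the protocols describe no drug treatment. The antibodies ab21061 and sc8558 are labelled as binding different parts of GFI1, with 1 library for each, and the design asked which sites GFI1 occupies. Labels disagree in places: a protocol names antibodies to the fusion protein, and a sample title for sc8558 has GFI2. The antibody labels were followed. As a model, NB4 is a single leukemic line, so nothing here bears on normal promyelocytes or neutrophils, and neither expression nor chromatin state was analysed.

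GFI1 is a zinc-finger repressor that binds DNA at sequences with an AATC core and recruits histone deacetylases and the demethylase LSD1. In mice, loss of Gfi1 blocks neutrophil formation. Granule proteins are made in waves as precursors mature: primary (azurophil) proteins at the promyelocyte stage, secondary (specific) proteins in myelocytes, and tertiary (gelatinase) proteins later. A protein is sorted into the granule that is forming when its gene is on.

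In these libraries granule protein genes had peaks of the GFI1 antibodies within 10 or 50 kb more often than protein-coding genes in general. With all scores counted, the excess was similar for either antibody in these windows, but not inside gene spans. With a single library per antibody the shares carry no test and describe these libraries only. Within 10 kb, 11 of 35 (31.4%) had an ab21061 peak, against 17.4% of all protein-coding genes. For sc8558 it was again 11 (31.4%), against 17.8%. Regions where peaks of both lists overlapped by at least 1 bp, called shared regions here, lay within 10 kb of 8 genes (22.9%), against 12.8%. The 8 genes were FCN1, LYZ, SERPINB1, MPO, SRGN, ABCA13, PADI4 and TCN1. With either list counted, 13 genes (37.1%) had a peak, against 21.7%.

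In the wider window too, each share was above that of all protein-coding genes. Within 50 kb, 18 genes (51.4%) had an ab21061 peak, against 31.7% of all protein-coding genes. For sc8558 there were 17 (48.6%), against 32.4%, and for shared regions 14 (40.0%), against 24.3%. Either list reached 20 genes (57.1%), against 38.3%. ELANE, PRTN3 and AZU1 enter each of these counts through the same pair of peaks.

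**Figure D1:**
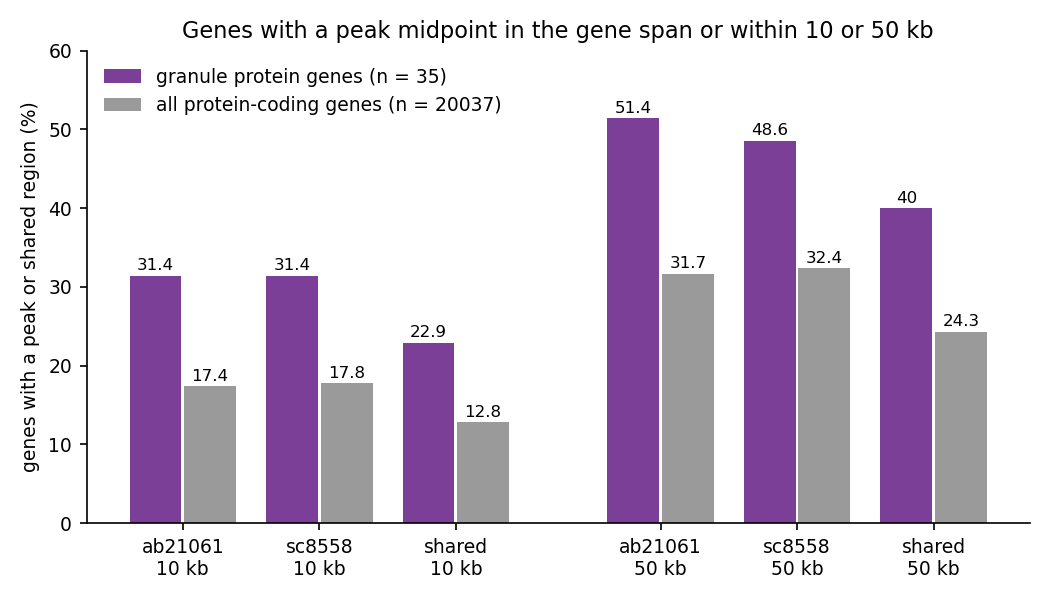
Percentage of genes with a peak or shared region whose midpoint lies in the gene span or within 10 kb (left 3 pairs) or 50 kb (right 3 pairs), for the 35 granule protein genes (purple) and all 20037 protein-coding genes (grey). The purple bar is the taller of every pair, from 22.9% against 12.8% for shared regions within 10 kb to 51.4% against 31.7% for ab21061 within 50 kb.

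Granule protein genes are short, and a short gene offers less room for a peak. Their median length was 11.1 kb, against 24.1 kb for all protein-coding genes. Among genes up to 60 kb long, which leaves out ABCA13, 10 of 34 (29.4%) had an ab21061 peak within 10 kb, against 11.6% of such genes. The shares were 10 of 34 (29.4%) against 12.2% for sc8558, and 7 of 34 (20.6%) against 8.57% for shared regions. Within 50 kb they were 17 of 34 (50%) against 27.4%, 16 of 34 (47.1%) against 28.2%, and 13 of 34 (38.2%) against 21.0%.

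Peaks inside the genes themselves were less frequent. Gene spans held an ab21061 midpoint in 7 genes (20.0%, against 11.6% of all protein-coding genes), an sc8558 midpoint in 5 (14.3%, against 11.7%) and a shared region in 4 (11.4%, against 8.35%). The 4 genes with a shared region inside were SRGN, TCN1, ABCA13 and PADI4. The higher-scoring regions near FCN1, LYZ, SERPINB1 and MPO lay beside the genes, as the map of peak positions shows.

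**Figure D2:**
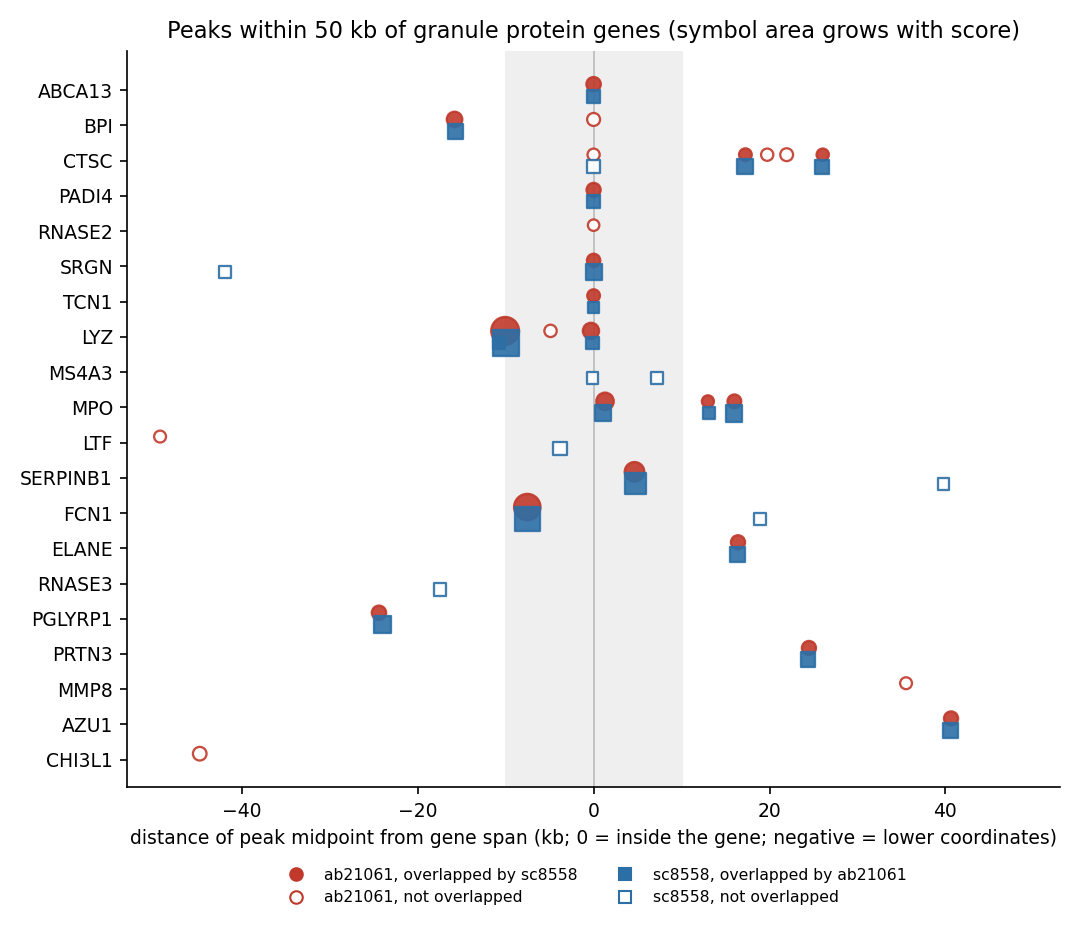
Position of every peak within 50 kb of a granule protein gene, as distance in kb of its midpoint from the gene span (0 means inside the gene, negative means lower coordinates, grey band within 10 kb), for the 20 genes that had any. Circles are ab21061 and squares sc8558, filled where the other list overlaps, and the area grows with the score: the largest symbols are those of LYZ and FCN1, and ELANE, PRTN3 and AZU1 show the same pair of peaks at 3 distances.

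The distance to the nearest peak gave the same picture without a window. The median distance from a granule protein gene to the nearest ab21061 peak was 49.3 kb, against 120 kb over all protein-coding genes. To the nearest sc8558 peak it was 73.1 kb, against 116 kb. To the nearest shared region it was 84.0 kb, against 180.0 kb. The members spread widely around these medians, since the distance was 0 for the genes with a peak inside and 1326 kb (ab21061) for CST7.

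**Figure D3:**
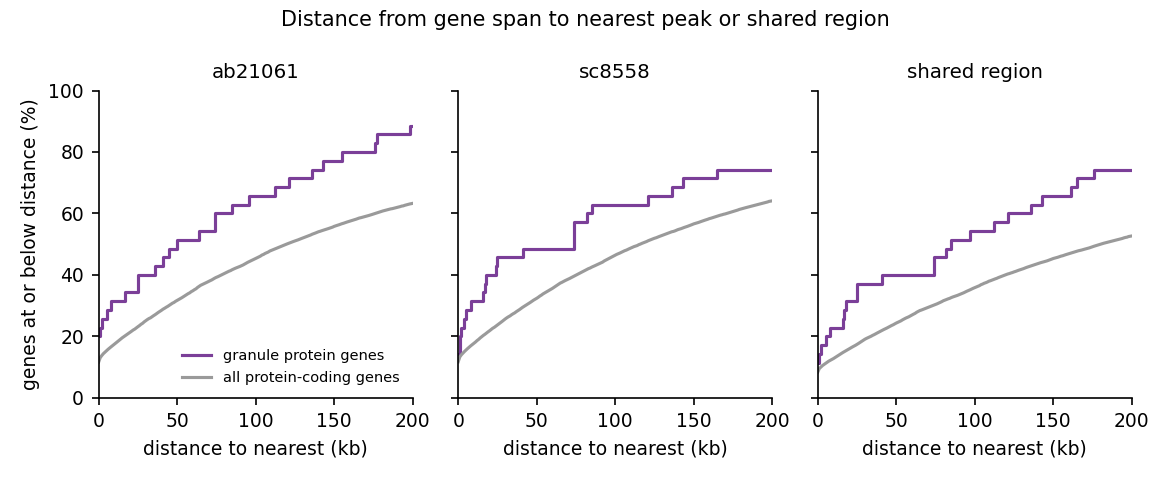
Cumulative percentage of genes (vertical axis) whose span lies at or below a given distance in kb (horizontal axis) from the nearest ab21061 peak, sc8558 peak or shared region, for the 35 granule protein genes (purple steps) and all protein-coding genes (grey). The medians of 49.3, 73.1 and 84.0 kb for granule protein genes lie below those of 120, 116 and 180.0 kb for all protein-coding genes.

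Each gene was placed in a granule class from textbook knowledge, with earlier results of these data known. Primary granule genes held most of the peaks of each list. Of the 8 genes with a shared region within 10 kb, 4 were primary. The primary class is broad: it includes LYZ, stored in all granule types, the intracellular inhibitor gene SERPINB1, and RNASE2 and RNASE3. LYZ and SERPINB1 are among the 4 primary genes with a shared region within 10 kb, so the counts by class depend on these placements. Of 15 primary genes, 7 (46.7%) had an ab21061 peak within 10 kb, against 17.4% of all protein-coding genes, 6 (40.0%) an sc8558 peak, against 17.8%, and 4 (26.7%) a shared region, against 12.8%. Within 50 kb the counts were 10 (66.7%, against 31.7%), 11 (73.3%, against 32.4%) and 9 (60%, against 24.3%). The neighbours ELANE, PRTN3 and AZU1 enter each of these wider counts through the same pair of peaks, so they are not separate cases. The 15 secondary granule genes stood near the background. Of these, 2 (13.3%, against 17.4%) had an ab21061 peak within 10 kb, 3 (20.0%, against 17.8%) an sc8558 peak and 2 (13.3%, against 12.8%) a shared region. For the wider window the counts were 6 (40.0%, against 31.7%), 4 (26.7%, against 32.4%) and 3 (20.0%, against 24.3%). Of 5 tertiary or other genes, 2 (40.0%) had peaks of both lists and a shared region in either window. For ab21061, sc8558 and shared regions, all protein-coding genes stood at 17.4%, 17.8% and 12.8% within 10 kb. Within 50 kb they stood at 31.7%, 32.4% and 24.3%. The difference between the classes was not tested.

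Scores are the authors' peak scores from MACS, where a higher score stands for a smaller p-value. They are read only within a list, with the rank counted from the highest score. LYZ encodes lysozyme, which cleaves bacterial cell walls and is stored in all granule types (chr12:69348381-69354234, hg38). The strongest peaks near any of the 35 genes lay at its lower-coordinate side. The ab21061 peak at chr12:69337772-69338874 scored 476.45, rank 238 of 7687, and the sc8558 peak at chr12:69338027-69338867 scored 415.87, rank 291 of 7562. Their midpoints were 10058 and 9934 bp from the gene, just outside and just inside the 10 kb limit, so the limit divides a pair of peaks that overlap. A weaker sc8558 peak beside them, at 59.43, joined the same shared region.

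At LYZ itself, a shared region at chr12:69347512-69348650 covered the lower-coordinate end of the gene. There the ab21061 peak scored 138.89 and the sc8558 peak 71.07, at ranks 1811 and 4619. An ab21061 peak without an sc8558 counterpart lay between them and the distal region, 4.90 kb from the gene, with a score of 66.01. No other protein-coding gene was nearer to any of these peaks. LYZ was the only granule protein gene with a shared region across a gene end.

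MPO encodes myeloperoxidase, the most abundant azurophil enzyme, which makes hypochlorous acid (chr17:58269855-58280935). It had shared regions at 3 places, all beyond its higher-coordinate end. The nearest, at 1.28 kb, joined an ab21061 peak of 166.44 (rank 1370) and an sc8558 peak of 139.59 (rank 1693). Regions at 13.0 and 16.0 kb scored 61.99 and 90.73 with ab21061, and 63.38 and 144.48 with sc8558. Both of these lay nearer to TSPOAP1 than to MPO.

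The serine proteases ELANE (neutrophil elastase) and PRTN3 (proteinase 3) and their inactive relative AZU1 (azurocidin) form a cluster on chromosome 19. None of the 3 genes had a peak within 10 kb in either list. A shared region at chr19:872181-873058, with scores of 97.28 (ab21061) and 113.12 (sc8558), lay 16.4 kb from ELANE, 24.4 kb from PRTN3 and 40.6 kb from AZU1. It is therefore counted for each of the 3 within 50 kb. The region lies inside MED16, a Mediator subunit gene, and 8.98 kb from CFD, the complement factor D gene. CTSG, the cathepsin G gene on chromosome 14, had no peak within 50 kb, and its nearest peaks were 84.0 kb away in both lists.

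Other genes whose products act on or with these proteases varied. SERPINB1 encodes an intracellular inhibitor of elastase, proteinase 3 and cathepsin G (chr6:2832332-2841863, minus strand). A shared region 4.65 kb upstream of it, at chr6:2846052-2846975, scored 218.87 with ab21061 (rank 895) and 257.44 with sc8558 (rank 663). A further sc8558 peak at 39.8 kb scored 53.5 and lay nearer to SERPINB9. SRGN encodes serglycin, the proteoglycan core that retains cationic proteases in granules. A shared region inside SRGN, at chr10:69092229-69093935, scored 83.33 with ab21061 and 137.85 with sc8558, at ranks 3778 and 1728.

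CTSC encodes cathepsin C, which activates the granule serine proteases (chr11:88293592-88337736, minus strand). It had 5 ab21061 peaks within 50 kb, more than any other of the 35 genes, and 3 sc8558 peaks, as did MPO and LYZ. Inside the gene the lists differed. The ab21061 peak there scored 62.94 and lay 36565 bp from the gene start, whereas the sc8558 peak scored 84.01 and lay 1371.5 bp from it, with no overlap of either by the other list. Upstream, shared regions at 17.2 and 26.0 kb scored 72.61 and 65.64 with ab21061, and 118.69 and 94.08 with sc8558. Between them stood 2 peaks of ab21061 alone, at 64.77 and 74.4. All of these upstream peaks lay inside LOC101929174, and CTSC was the nearest protein-coding gene. CST7, the gene of cystatin F, which inhibits cathepsin C, had no peak within 50 kb, and its nearest peaks were 1326 kb (ab21061) and 1299.8 kb (sc8558) away.

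**Figure D4:**
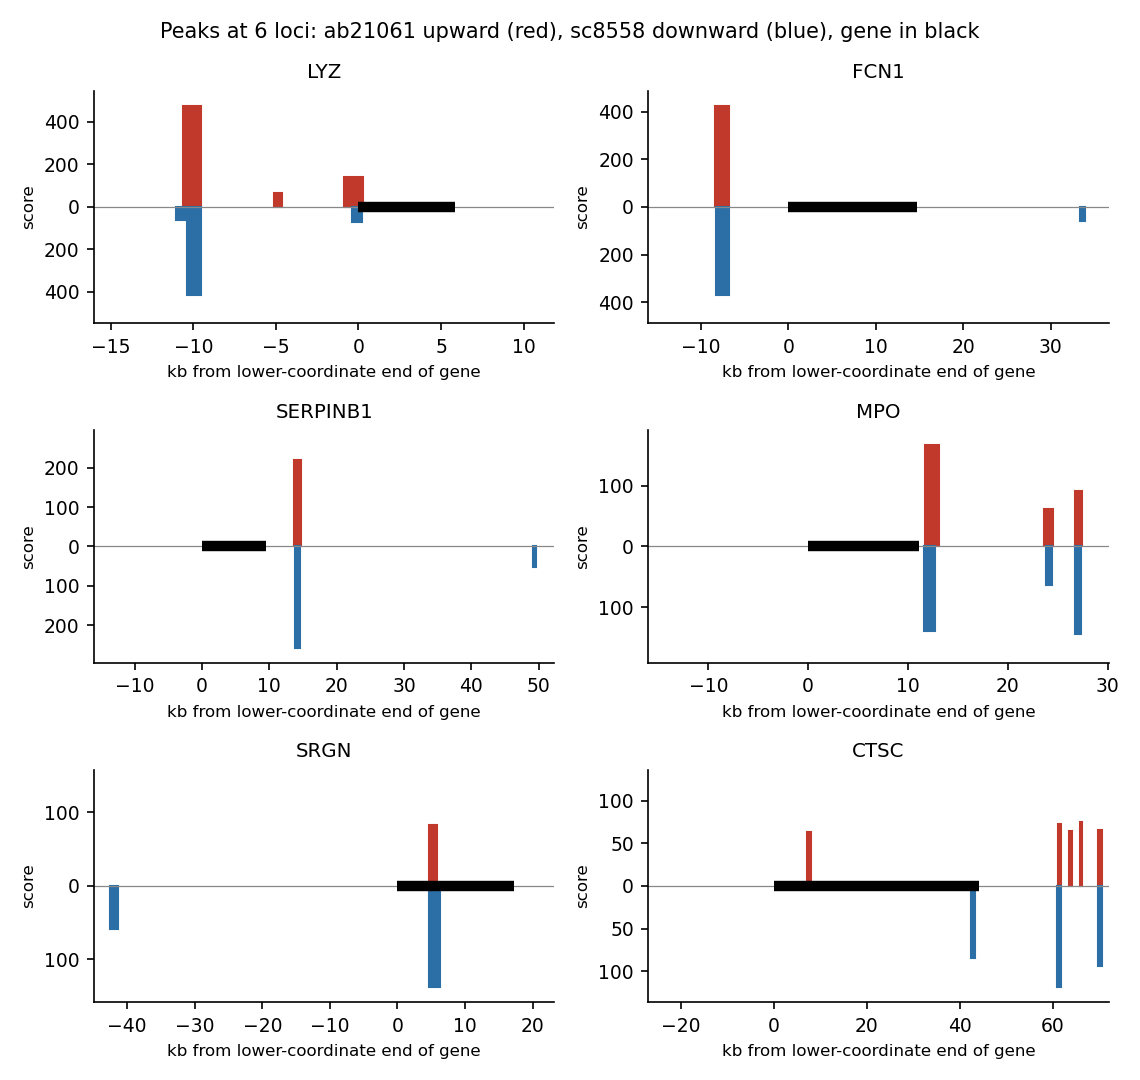
Peaks around LYZ, FCN1, SERPINB1, MPO, SRGN and CTSC, with bar width to scale and bar height the deposited score (upward red for ab21061, downward blue for sc8558), against distance in kb from the lower-coordinate end of the gene, drawn in black. Axes differ between panels. The distal LYZ region and the FCN1 region score 367.95 or more in both lists, and CTSC shows a row of peaks beyond its higher-coordinate end with scores from 64.77 to 118.69.

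The other primary granule genes with a peak within 10 kb, BPI, RNASE2 and MS4A3, had peaks of a single list there. BPI encodes a protein that binds lipopolysaccharide and kills gram-negative bacteria. An ab21061 peak without overlap covered its lower-coordinate end with a score of 75.99, and a shared region 15.8 kb below that end scored 124.75 (ab21061) and 115.57 (sc8558). RNASE2 and RNASE3 encode ribonucleases best known from eosinophil granules. RNASE2 held an ab21061 peak of 51.97 inside the gene, rank 7241 of 7687, and RNASE3 an sc8558 peak of 62.45 at 17.5 kb. The RNASE2 and RNASE3 genes are close paralogs, and the treatment of reads that match both is not stated. DEFA4, a defensin gene, had no peak within 50 kb.

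MS4A3 encodes a membrane protein of granulocyte precursors. It had 2 sc8558 peaks and no ab21061 peak within 50 kb. The sc8558 peak at chr11:60056150-60056884 covered the start of the gene with a score of 52.58, rank 7019 of 7562, and the other, 7.17 kb beyond the far end, scored 62.96. MS4A3 was the only granule protein gene whose promoter could be read here and was overlapped by a peak, so the 250 bases before its start are shown (RefSeq, GRCh38.p14, chr11:60056415-60056664, plus strand, 5′ to 3′), with the AATC core of GFI1 sites on either strand in capitals.
MS4A3: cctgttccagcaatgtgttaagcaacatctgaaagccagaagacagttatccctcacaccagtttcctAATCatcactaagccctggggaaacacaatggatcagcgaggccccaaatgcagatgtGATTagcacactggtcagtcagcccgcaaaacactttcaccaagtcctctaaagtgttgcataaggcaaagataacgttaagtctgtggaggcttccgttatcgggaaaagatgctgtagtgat
The core occurs at 182 to 179 bases before the start and, on the opposite strand, at 124 to 121 bases before it. Such a match is common: 65.6% of 27303 promoter windows of this length hold AATC on either strand. The longer forms AAATCAC and AATCACNGC do not occur in this window.

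Of the secondary granule genes, TCN1, ABCA13 and LTF had a peak within 10 kb. TCN1 encodes haptocorrin, a vitamin B12 binder (chr11:59852808-59866487, minus strand). A shared region inside TCN1 scored 71.93 with ab21061 and 53.06 with sc8558, below the list medians of 82.4 and 81.7. ABCA13 encodes a large lipid transporter and at 476 kb is the longest of the 35 genes. A shared region near its far end, 3.77 kb from that end, scored 102.77 with ab21061 and 80.72 with sc8558. LTF encodes lactoferrin, which binds iron. An sc8558 peak 3.80 kb downstream of LTF scored 86.34 and had no ab21061 counterpart, and the nearest ab21061 peak, 49.3 kb away with a score of 58.73, is the farthest peak counted in the wider window.

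For several secondary genes the peaks within 50 kb lay nearer to other genes. PGLYRP1 encodes a peptidoglycan recognition protein. Its shared region, 24.0 kb away, scored 101.46 (ab21061) and 157.99 (sc8558) and lay 0.350 kb from an end of CCDC61. MMP8, the neutrophil collagenase gene, had an ab21061 peak of 58.26 at 35.5 kb, and CHI3L1, a chitinase-like protein gene, had an ab21061 peak of 87.56 at 44.8 kb that lies inside ADORA1. Of the 16 shared regions within 50 kb of the 35 genes, 4 had another protein-coding gene nearer, whereas none of the 8 within 10 kb did.

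The other 9 secondary genes had no peak of either list within 50 kb. They were LCN2 (neutrophil gelatinase-associated lipocalin), CAMP (cathelicidin), CEACAM6 and CEACAM8 (surface adhesion proteins), OLFM4, CRISP3, RETN (resistin), CD177 and HP (haptoglobin). The nearest peaks ranged from LCN2, at 73.1 kb in both lists, to CEACAM6, at 1169.9 kb for ab21061 and 1759 kb for sc8558. CEACAM8, also on chromosome 19, was 1101.6 and 1101.5 kb from the nearest peaks. CEACAM6, CEACAM8, CD177 and DEFA4 belong to families with close copies, and how reads matching several copies were treated is not stated.

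Among tertiary granule and other genes, FCN1 had peaks of high rank. FCN1 encodes M-ficolin, a lectin that triggers complement (chr9:134903232-134917912, minus strand). A shared region 7.54 kb downstream of it, at chr9:134894888-134896497, scored 425.24 with ab21061 (rank 288 of 7687) and 367.95 with sc8558 (rank 358 of 7562), and the midpoints of the peaks differed by 0.5 bp. FCN2, a paralog, lies next on that side, and its end is 8.17 kb from the region. A further sc8558 peak 18.9 kb upstream of FCN1 scored 57.72. PADI4 encodes the enzyme that citrullinates histones in neutrophil extracellular traps. A shared region inside PADI4, 4.15 kb from its lower-coordinate end, scored 97.16 with ab21061 and 76.19 with sc8558. MMP9 (gelatinase B), MMP25 (a membrane-bound metalloproteinase) and ARG1 (arginase) had no peak within 50 kb.

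**Figure D5:**
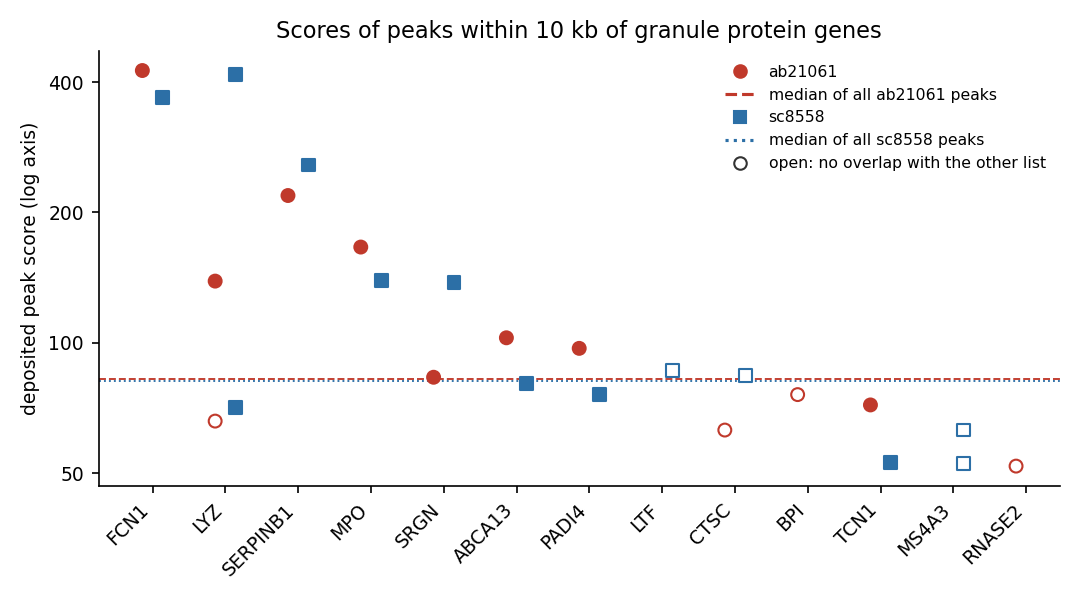
Deposited score (log axis) of each peak within 10 kb of a granule protein gene, with ab21061 as red circles left of sc8558 as blue squares, open where the other list does not overlap, and the median score of each full list as a dashed or dotted line. FCN1, LYZ and SERPINB1 have peaks above 200, and every open symbol lies below 90, near or under the list medians of 82.4 and 81.7.

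The antibodies overlapped at these genes about as often as over their full lists. Of the 12 ab21061 peaks within 10 kb, 8 (66.7%) were overlapped by sc8558, against 63.7% of the whole list. Of the 13 sc8558 peaks, 9 (69.2%) were overlapped by ab21061, against 65.0%. Within 50 kb the shares were 16 of 25 (64.0%) and 17 of 25 (68.0%). The overlapped peaks within 10 kb had median scores of 121 (ab21061) and 138 (sc8558), and those without overlap 64.5 and 73.5. Medians split this way over the full lists are not given here, so the gap cannot be called particular to these genes. The single-antibody genes BPI, RNASE2, LTF and MS4A3 rest on peaks with scores from 51.97 to 86.34 within 10 kb.

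High scores were not a general feature of the group. The median score of the peaks within 10 kb was 90.2 for ab21061 and 84.0 for sc8558, against 82.4 and 81.7 over the lists. At a score of 100 or more, ab21061 peaks remained within 10 kb of 5 genes (14.3%, against 8.41% of all protein-coding genes) and sc8558 peaks within 10 kb of 5 (14.3%, against 8.33%). Shared regions at that score lay within 10 kb of FCN1, MPO and SERPINB1 (3 genes, 8.57%, against 6.29%). Within 50 kb the counts were 7 (20.0%, against 16.3%), 11 (31.4%, against 16.5%) and 6 (17.1%, against 12.6%). The 11 include ELANE, PRTN3 and AZU1, reached by the same sc8558 peak, so they are not all separate cases. At this score the shared counts in both windows and the ab21061 count within 50 kb stood close to the background.

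Promoter sequence was read for 23 of the 35 genes, over the 250 bases before the gene start. Of the 23, none had a promoter overlapped by an ab21061 peak, against 1.70% of all 27303 promoters, and MS4A3 had a promoter overlapped by an sc8558 peak, against 1.74%. The 12 genes without a promoter sequence include LYZ and BPI, each with an ab21061 peak across its lower-coordinate end. The promoter counts therefore say nothing about those genes. The AATC core (either strand) occurred in 17 of 23 (73.9%), against 65.6% of all promoters and 62.0% of protein-coding ones. Among promoters overlapped by peaks of both antibodies the share was 78.5%. The GFI1 letters AAATCAC (either strand) occurred in MMP8 and OLFM4, 2 of 23 (8.70%), against 2.66% of all promoters and 7.67% of the 326 promoters overlapped by peaks of both antibodies. AATCACNGC occurred in CEACAM8, 1 of 23 (4.35%), against 0.919% and 4.29%. All 3 genes lacked a peak within 10 kb. Their matches are shown on the gene's strand, 5′ to 3′, with the matched letters in capitals.
MMP8: tgggggtactAAATCACattataaaat
OLFM4: ggccatggggAAATCACcactgggcac
CEACAM8: tgggtgagagAATCACTGCtgaaggagtc
These stretches lie at chr11:102725057-102725083 on the minus strand, chr13:53028755-53028781 on the plus strand and chr19:42595090-42595118 on the minus strand, all in GRCh38.p14.

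The most frequent longer motif in these promoters was that of C/EBP factors, which switch on many granule genes. The letters TTGCNNAA (either strand) occurred in 9 of 23 promoters (39.1%), against 9.12% of all promoters and 7.26% of the 15842 protein-coding ones. Among the 326 promoters overlapped by peaks of both antibodies the share was 13.8%. RNASE2 and RNASE3 are close paralogs with nearly the same stretch, so the 9 are not all separate cases. The match nearest the start is shown for each of the 9, on the gene's strand, with the matched letters in capitals. Matches on the opposite strand read TTNNGCAA.
AZU1: ggtggaggccTTGGGCAAtttcccgtgt
CRISP3: caaccagaatTTGCCAAAacaggaaata
LCN2: tccctctgtcTTGCCCAAtcctgaccag
MMP8: cattataaaaTTGCAAAActgtcagagt
MS4A3: ctctaaagtgTTGCATAAggcaaagata
PRTN3: agcctgggcaTTGGGCAActcaacggcc
RNASE2: aaaaggatgaTTGCACAAgtggactatg
RNASE3: aaaaggatgaTTGCACAAgtggaccatg
TCN1: cctcctgacaTTGCTCAAtatttgcttg
Only MS4A3 of these 9 had a peak across its promoter. Base composition differs between the sets: the median GC content was 54.8% for the 23 promoters, against 62% for protein-coding promoters, and its part in the motif shares was not tested. The other motifs were at 2 of 23 each: GAGGAAGT of PU.1 in CAMP and PRTN3 (8.70%, against 2.10% of all promoters), TGTGGT of RUNX factors in RETN and TCN1 (8.70%, against 11.0%) and TAACNG of MYB in CEACAM6 and MS4A3 (8.70%, against 17.6%). Such matches are letters in a window and not binding sites.

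The same count was made for regulators of granule genes, for other granule proteins and for genes of granule sorting and release. These lists were drawn up with earlier results of these data known, so their shares describe the chosen genes only. Of 16 regulators, 8 (50%) had a shared region within 10 kb, against 12.8% of all protein-coding genes, and of the 10 up to 60 kb long 5 did, against 8.57%. RUNX1 and MYB, both activators of primary granule genes, had the highest scores, 726.25 and 566.47 with ab21061, and 672.47 and 699.07 with sc8558. By the lower of the 2 scores IKZF1 came next, at 225.27 (ab21061) and 318.58 (sc8558), then GFI1B at 110.43 and 188.65. CEBPE, the factor required for secondary granules, had a shared region 4.08 kb away with scores of 88.03 (ab21061) and 113.3 (sc8558), named here after its values were seen.

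Of 51 other granule cargo and membrane genes, 11 (21.6%) lay within 10 kb of a shared region, against 12.8% of all protein-coding genes, and of the 44 up to 60 kb long 9 (20.5%) did, against 8.57%. The highest scores were at CR1, the complement receptor 1 gene, with 646.2 (ab21061) and 881.03 (sc8558), followed by CYBB, the catalytic subunit of the phagocyte oxidase, with 228.25 and 297.78. ADAM8, a membrane metalloproteinase, had 189.4 (ab21061) and 209.1 (sc8558), and CTSD, the cathepsin D gene, 207.81 and 186.5. Of 15 granule sorting and exocytosis genes, 4 (26.7%) lay within 10 kb of a shared region, against 12.8%. Of the 10 up to 60 kb long 1 (10.0%) did, against 8.57%, so among genes of this length the share was near the background. VPS45, a vesicle fusion protein gene, had 562.46 (ab21061) and 609.97 (sc8558), and RAB27A, a GTPase of granule release, 194.09 and 182.37. AP3B1, an adaptor subunit for sorting to lysosome-related organelles, had 135.3 and 65.43, and RAB3D 54.55 and 56.14.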

How the data were processed

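The submitters' processing notes list the hg38 build, the aligner Bowtie2 2.2.9 and the peak caller MACS 1.4.2. For tool options, read filters and any control, the sources used here give nothing. The authors deposited a peak list per library with a score for each peak, from 50.01 to 3100. Depth is unknown, so no score level is compared between lists.

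Genes and lengths came from RefSeq (GRCh38.p14, the same build) and strands and sequences from its promoter table. Member peaks were those with a midpoint in the gene span or within 10 or 50 kb. Shared regions merged overlapping peaks. The 20037 protein-coding genes on chromosomes 1 to 22, X and Y were the background. Each member with a peak within 10 kb was named with those peaks, and members reached only within 50 kb by their nearest. Of other lists the 4 genes highest by the lower of their 2 scores were named, with CEBPE and PSAP besides. There was 1 library per antibody and so no test or p-value. Counting was checked on simulated data. Members, lists and granule classes were chosen with earlier results of these data known. The software was Python 3.11.15 with numpy 2.4.6, pandas 2.3.3 and matplotlib 3.10.9.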

Additional observations from a re-analysis of the deposited data

How the results depend on the processing

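Of 58 recomputed counts, 47 stayed within 1.5 times the reported value and 11 moved further. A score of 100 or more moved each count it was applied to. Fewer peaks enter at that score, which favours a fall but does not set its size. Within 10 kb the counts became 5, 5 and 3 genes for ab21061, sc8558 and shared regions, and within 50 kb 7, 11 and 6. Shared regions within 10 kb were left at 5 of 16 regulators, 6 of 51 other cargo genes and 2 of 15 sorting genes. The share of all protein-coding genes with such a region at that score was 6.29%. Counting only windows around gene ends left 4 regulators, and taking the 5000 highest-scoring peaks of each list left 2 sorting genes. The shares of all protein-coding genes under these settings are not given here, so an excess cannot be read from those counts. Any overlap in place of midpoints, 50% overlap and midpoints within 500 bp kept every count within that range. So did leaving out ABCA13 and counting ELANE, PRTN3 and AZU1 as 1 locus (16, 15 and 12 within 50 kb), both chosen after seeing the data. No paired analysis was possible because each antibody had 1 library. The depth of the libraries is unknown, which limits what an unmatched peak can show.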
